A study of Mus musculus with 2 samples.

Results

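The albumin family was examined in RNA sequencing of adult mouse liver. Its members are the 4 genes Alb, Afp, Afm and Gc, taken by symbol out of 43346 genes listed, and all lie on chromosome 5. The data are 2 libraries of polyadenylated RNA, labelled biological replicates 1 and 2 of a single group of C57BL/6J mice, a common inbred laboratory strain, at 8 weeks of age. The labels describe littermates of both sexes pooled, name no genetic change or agent, and give both libraries the same donor identifier. The labels do not say if separate animals were used for each replicate, so the difference between the libraries may be technical, and the p-values given below compare these 2 libraries alone.

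Gene reads totalled 59676342 in replicate 1 and 60600117 in replicate 2, and 10701 genes reached 1 TPM (transcript abundance scaled for length) in both libraries. All 14 hepatocyte markers reached that level, with summed levels of 96663 and 90516 TPM in replicates 1 and 2. Against the label of mixed sex, 4 broadly expressed Y-linked genes, Ddx3y, Eif2s3y, Kdm5d and Uty, had 0 reads in both libraries, which allows up to 3 reads each. The X inactivation RNA Xist, from the same list, had 18451 and 26061 reads (23.38 and 35.87 TPM) in replicates 1 and 2. The cause of these values was not tested. In bulk tissue, fewer cells of a type and less RNA per cell cannot be told apart.

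Albumin family proteins are secreted by hepatocytes into plasma and carry small molecules. They are built from repeated domains held together by disulfide bonds, many of them formed at pairs of adjacent cysteines, and the genes are thought to have arisen by duplication. Albumin (Alb) is the main protein of plasma, keeps its oncotic pressure and carries fatty acids, bilirubin and drugs. The vitamin D-binding protein (Gc) carries vitamin D metabolites and binds actin released from damaged cells. Afamin (Afm) binds vitamin E and carries hydrophobic WNT proteins. Alpha-fetoprotein (Afp) is the abundant family member of fetal plasma, is silenced in liver after birth and is used as a marker of liver tumours.

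The sequence just before each start of transcription is shown because hepatocyte factors bind there in the albumin and alpha-fetoprotein genes. The RefSeq table, on build GRCm38.p6, held a promoter for all 4 members. Each line gives the 150 bases before the RefSeq start, 5′ to 3′ on the gene's own strand, with GTTAAT, an arm of the palindrome that HNF1 factors bind, and TATAAA, the TATA box, in capitals on either strand, so that ATTAAC is GTTAAT read on the other strand. The intervals are chr5:90460720-90460869 (plus strand) for Alb, chr5:90490564-90490713 (plus strand) for Afp, chr5:90518799-90518948 (plus strand) for Afm and chr5:89457899-89458048 (minus strand) for Gc.
Alb: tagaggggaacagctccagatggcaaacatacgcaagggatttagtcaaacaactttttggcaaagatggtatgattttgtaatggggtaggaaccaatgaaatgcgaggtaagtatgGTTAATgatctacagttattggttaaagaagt
Gc: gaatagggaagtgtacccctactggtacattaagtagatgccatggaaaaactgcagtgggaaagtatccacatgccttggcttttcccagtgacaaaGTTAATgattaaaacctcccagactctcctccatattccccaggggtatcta
Afm: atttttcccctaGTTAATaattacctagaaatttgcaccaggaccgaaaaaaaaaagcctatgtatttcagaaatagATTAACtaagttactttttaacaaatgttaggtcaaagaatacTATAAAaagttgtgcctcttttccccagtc
Afp: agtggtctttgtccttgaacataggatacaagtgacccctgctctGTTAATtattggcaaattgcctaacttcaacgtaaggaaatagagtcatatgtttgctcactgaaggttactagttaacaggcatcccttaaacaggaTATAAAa

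All 4 members held GTTAAT within 250 bases before to 50 bases after the start. It was found in 7.10% of the 32851 promoters of the table when both strands were searched. Its first base stood at position -32 in Alb, -52 in Gc and -105 in Afp, and Afm had it at -138 and, on the other strand, at -73. TATAAA was found in Afm at -30 and in Afp at -7, and in neither Alb nor Gc, against 13.6% of all promoters. The RefSeq start lies 27 bases upstream of the GENCODE start in Alb and 23 bases upstream in Afp, and 17 bases downstream of it in Afm, while both starts are the same base in Gc. Counted from the GENCODE start, TATAAA stands at -30 in Afp and at -13 in Afm, and GTTAAT at -59 in Alb, -128 in Afp, and -121 and -56 in Afm.

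Other motifs were searched in the same way on both strands. CCAAT was in all 4 members and in 37.4% of promoters. TTNNGNAA, the core of C/EBP and PAR bZIP factors, was in all 4 members and in 40.7% of promoters. TGTTTNC, the core of FOXA factors, and TTGGCA, an arm of the NF-I site, were each found in Alb and Afp, against 20.5% and 14.1% of promoters. CAAAGTCCA, the site of HNF4, was in none of the 4 windows and in 0.475% of promoters. CCAAT on the other strand reads ATTGG and overlaps TTGGCA in Afp, and TTNNGNAA overlaps TTGGCA in Alb. Such matches describe letters only and are not shown to be bound here.

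At the level of mRNA the family was dominated by 1 gene. Alb (ENSMUSG00000029368, chromosome 5, 90460897 to 90476602, plus strand, GRCm38) stood at 32113 TPM in replicate 1 and at 34763 TPM in replicate 2, a mean of 33438 ± 1873 TPM (SD, n = 2). These values rest on 2903979 and 3184264 estimated reads. Alb ranked 2 among all genes in replicate 1 and 1 in replicate 2, and it alone took 4.87% and 5.25% of all gene reads.

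Gc (ENSMUSG00000035540, chromosome 5, 89417522 to 89457898, minus strand) had 2199 and 2014 TPM in replicates 1 and 2, a mean of 2107 ± 131 TPM (SD, n = 2), from 174112 and 161638 reads. It ranked 54 and 61 in the libraries. The second carrier of the family was thus also among the most abundant mRNAs of the tissue, well below Alb.

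Afm (ENSMUSG00000029369, chromosome 5, 90518932 to 90553543, plus strand) reached 97.49 TPM in replicate 1 and 92.87 in replicate 2, a mean of 95.2 ± 3.27 TPM (SD, n = 2), from 8930 and 8702 reads. Its ranks were 1136 and 1203 in replicates 1 and 2. Afp (ENSMUSG00000054932, chromosome 5, 90490737 to 90508907, plus strand) had 8 reads in replicate 1 and 19 reads in replicate 2. These correspond to 0.09 and 0.20 TPM, with exact Poisson 95% intervals of 0.0373 to 0.170 TPM and 0.122 to 0.317 TPM, which cover counting error only. Both libraries stayed below 1 TPM for Afp, and its mean was 0.145 ± 0.0778 TPM (SD, n = 2).

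**Figure D1:**
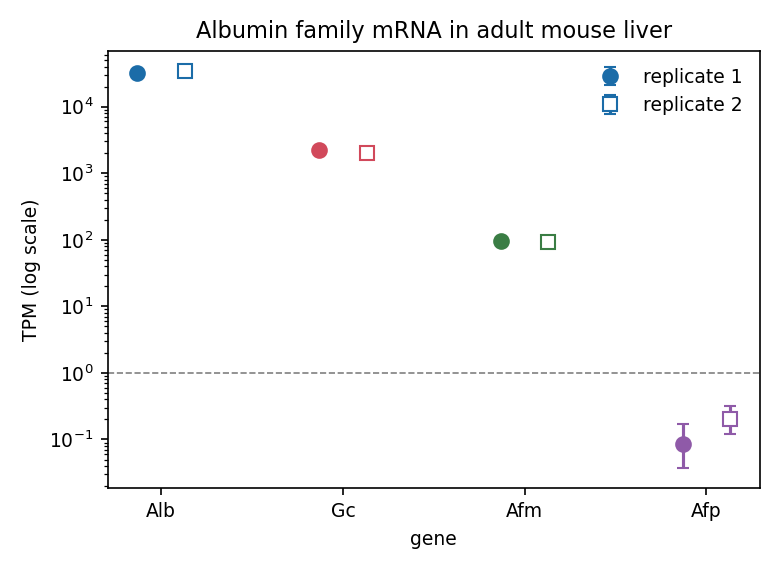
Level of each albumin family gene in TPM (log scale), with filled circles for replicate 1, open squares for replicate 2 and bars for the exact Poisson 95% interval of the reads, drawn where wider than the symbol. The members stand in the order Alb, Gc, Afm and Afp in both libraries, and only Afp lies below the dashed line at 1 TPM.

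The order Alb, Gc, Afm and Afp was the same in both libraries, and each step between neighbours was larger than the spread of the libraries. Alb exceeded Gc by 14.6 times in replicate 1 and 17.3 times in replicate 2 in TPM. Gc exceeded Afm by 22.6 and 21.7 times, the steadiest of the steps between neighbours. Afm exceeded Afp by 1127 and 458 times, a ratio set by the few reads of Afp. Across the whole family the levels therefore spanned 371413-fold in replicate 1 and 171457-fold in replicate 2.

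The 4 genes together summed to 34410 and 36870 TPM in replicates 1 and 2, or 3.44% and 3.69% of all TPM. Alb held 93.3% and 94.3% of the family's TPM, a mean of 93.8% ± 0.679 (SD, n = 2). Gc held 6.39% and 5.46%, a mean of 5.93% ± 0.657, so the libraries differed in how the family divided between its leading members. Afm held 0.283% and 0.252%, and Afp 0.000251% and 0.00055%.

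**Figure D2:**
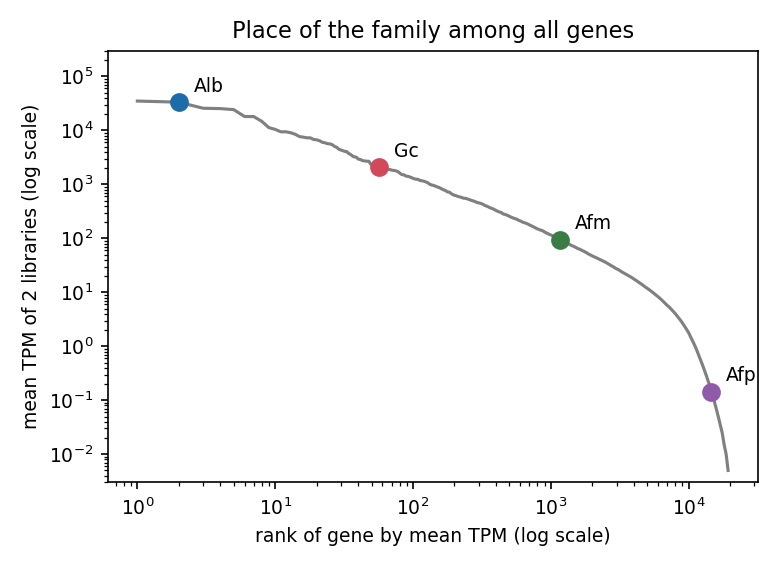
Mean TPM of the 2 libraries against the rank of the gene by that mean, both on log scales, with all genes above 0 as the grey line and the albumin family as points. Alb stands at rank 2, Gc at 57, Afm at 1169 and Afp at 14616.

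Genes nearest to each member over the 2 libraries, by distance in log2(TPM + 1) among protein-coding genes, show the company it keeps in level. Beside Alb stood the apolipoprotein gene Apoe (36293 and 33839 TPM), mt-Co1, a mitochondrially encoded subunit of cytochrome c oxidase, and the iron carrier transferrin (Trf). Next to Gc were the respiratory chain genes mt-Nd4, Cox6a1 and Uqcr11. Afm lay closest to Ndufs6, Cops6 and Serpina11, and Afp closest to Nmnat2, Rnf150 and Nkd2. With 2 libraries such likeness describes level alone.

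The libraries were then compared gene by gene, which asks how far these 2 libraries differ and not how any condition acts. Reads were scaled by TMM, a scaling with a median log2 ratio of 0.00 over all genes, and tested by an exact conditional binomial test, two-sided, adjusted by Benjamini-Hochberg over 14533 genes. Of the 4 members 3 were called, against 57.0% of all genes tested. In one direction, 29.4% of genes were called higher in replicate 1 and 27.7% higher in replicate 2, so calls are common at this depth. edgeR's exact test was also run, with a biological coefficient of variation of 24.1% as the spread between the libraries. That spread was estimated from the same 2 libraries taken as 1 group, so the difference tested also set its own error. Of the 14533 genes, 166 were called and 855 had an unadjusted p under 0.05 in this test. Of the 4 members 0 were called and 0 had such a p. A gene of ordinary ratio could hardly be called this way, so the missing calls of the members carry little weight.

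Gc was higher in replicate 1, with a log2 ratio of 0.26 (1.20-fold) and an adjusted p of the exact test too small for the computation to represent. Among all genes its absolute ratio stood at percentile 49.9, beside a median absolute log2 ratio of 0.26 over all genes. Of the 97 genes within 2-fold of its level, 96.9% were called. The ratio of Gc was therefore of ordinary size for these libraries and was called on many reads.

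Afm was also higher in replicate 1, at a log2 ratio of 0.19 (1.14-fold, exact test, adjusted p = 2.62e-17), and its absolute ratio was at percentile 38.2. With spike-in totals as scaling, its log2 ratio was 0.030 and the call was lost (adjusted p = 0.228). Of 1333 genes near its level, 82.6% were called.

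For Alb the sign depended on the scaling. Its log2 ratio was 0.019 with TMM scaling (1.01-fold, exact test, adjusted p = 3.99e-57) and turned to -0.11 when total reads were used and to -0.14 when spike-in totals were, so no direction can be given for it. With TMM its absolute ratio was at percentile 3.97 of all genes, below those of Afm and Gc, whereas with spike-in totals it was larger than those of Afm (0.030) and Gc (0.10). Total reads and spike-in totals shifted the median ratio over all genes to -0.13 and -0.15, and the share of calls higher in replicate 1 was 30.6% and 26.4% with these, against 51.5% with TMM. Relative to that median Alb was close to 0. A change of scaling shifts the ratios of all genes by nearly the same amount, so this distance is fixed by arithmetic.

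Afp, with 8 and 19 reads, had a log2 ratio of -1.05 and was not called (exact test, adjusted p = 0.145). Its read intervals, 3.45 to 15.8 in replicate 1 and 11.4 to 29.7 in replicate 2, overlapped. On these reads the exact test did not separate the libraries for Afp, which does not show that they were alike. Among 1260 genes within 2-fold of its level 25.6% were called, and 315 had a larger absolute ratio.

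**Figure D3:**
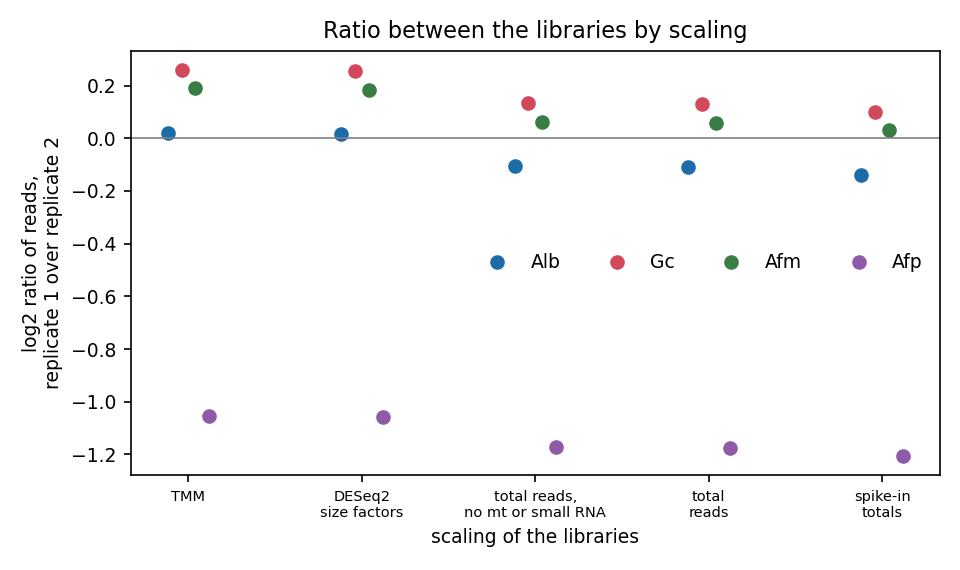
Log2 ratio of reads, replicate 1 over replicate 2, for each member under 5 scalings of the libraries. Gc and Afm stay above 0 with all 5, Alb changes sign between TMM (0.019) and total reads (-0.11), and Afp, on 8 and 19 reads, stays below -1.

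Markers of other cell types moved between the libraries as well. Over all genes tested, 29.4% were called higher in replicate 1 and 27.7% higher in replicate 2 with TMM. Kupffer cell markers, of the resident macrophages, summed to 221 TPM in replicate 1 and 369 TPM in replicate 2, with 10 of 10 called higher in replicate 2. Endothelial markers summed to 124 and 182 TPM, with 7 of 8 higher in replicate 2. Both lists kept this direction under the TMM, DESeq2, total-read and spike-in scalings. Hepatocyte markers had 13 of 14 genes called higher in replicate 1 with TMM, at a median log2 ratio of 0.14, but 7 higher in replicate 1 and 6 higher in replicate 2 once scaled by total reads, and 6 and 8 once scaled by spike-in totals, so their direction depends on the scaling as that of Alb does. Stellate cell markers, of the fat-storing cells, summed to 108 and 124 TPM, and all 9 reached 1 TPM in both libraries. Their calls went both ways with TMM, 2 higher in replicate 1, 5 higher in replicate 2 and 2 not called. Cholangiocyte and progenitor markers, which include cells that can express Afp in injured liver, summed to 35.0 and 32.8 TPM, with 5 of 9 at 1 TPM or more in both, 3 of 7 tested called higher in replicate 1 and 1 higher in replicate 2. Proliferation genes summed to 83.8 and 62.9 TPM, with 4 of 10 at 1 TPM or more in both libraries. Most of that sum came from Tk1 (58.45 and 39.1 TPM) and Pcna (18.85 and 17.76 TPM). Calls were made for 5 of 10 with TMM, 4 of them toward replicate 1. The part of these shifts in the ratios of the members was not tested.

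In the deposited tables Alb, Afp and Gc have 1 transcript each and Afm has 2. GENCODE M21 annotates 3 for Alb, 5 for Afp, 2 for Gc and 2 for Afm. The full-length Afm-201, of 15 exons, held 93.19% of the gene's TPM in replicate 1 and 88.82% in replicate 2. Afm-202, which shares its first 9 introns with Afm-201 and ends before the last exons, held 6.81% and 11.18%, on 736.65 and 1165.83 estimated reads. This shift of 4.37 points was smaller than the median of 5.87 points for the largest shift of an isoform in 4107 genes with several isoforms at 10 TPM or more, and 59.5% of these genes shifted more. The authors' posterior standard deviation, which grows where reads are divided among similar genes, was 0 for all 4 genes.

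Splice junctions were counted by the authors over the whole series, on mm9, and the reads of both libraries were used together. All 14 introns of Alb, all 12 of Gc and all 14 of Afm were found there with the lengths and spacing of the annotated transcript. Alb junctions carried 66055 (intron 1) to 836266 (intron 11) reads, with a median of 250034. Together they made 4728700 reads, 9.37% of all junction reads in the file, and 12 of the 20 best-read junctions were of Alb.

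Junctions of Gc carried 5507 to 48669 reads (introns 7 and 4), with a median of 21044.5. Those of Afm carried 239 to 2557 reads (introns 7 and 11), with a median of 907.5. The order of the members by spliced reads was therefore that by TPM, although neighbouring introns of a gene differed by several fold. Along Gc and Afm the best-read junction exceeded the least-read by 8.84 and 10.7 times, and along Alb by 12.7 times.

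Afp had spliced reads at 7 of its 14 introns, 21 reads in all. Introns 4, 5, 7, 8, 10, 11 and 12 carried them, at most 6 on intron 4, and no read crossed introns 1, 2 or 3. A match of part of the introns was accepted for Afp after the values were seen, since the next best placement of the gene fitted 1 intron only. Spliced Afp mRNA was thus present in these libraries at the level of single reads.

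**Figure D4:**
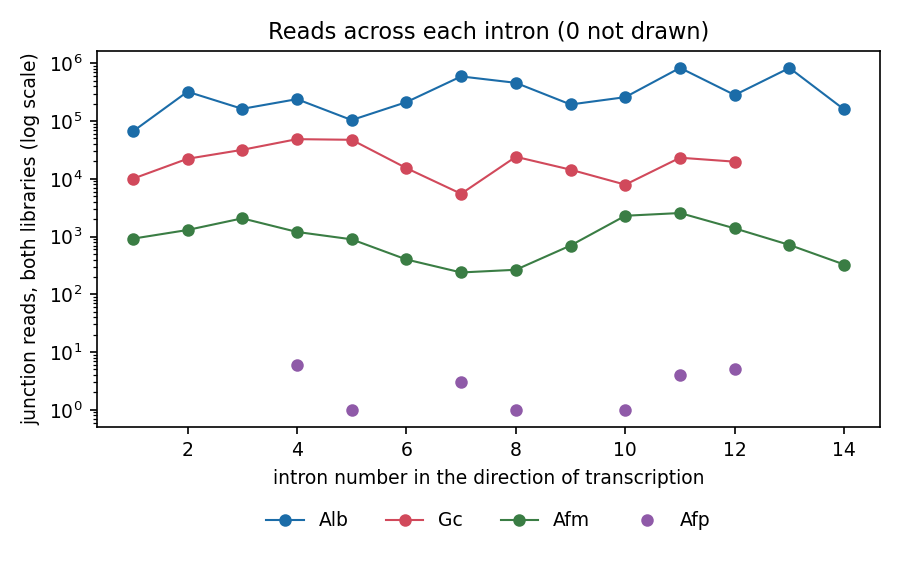
Reads across each annotated intron, both libraries together (log scale), against the intron's number in the direction of transcription. Alb, Gc and Afm have reads at every intron in separate ranges, and Afp has between 1 and 6 reads at 7 introns, those at 0 not being drawn.

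Nearly all spliced reads used the annotated introns. Within the span of Alb they made 99.8% of junction reads on its strand, within Gc 99.6% and within Afm 99.2%. Exon skipping, a junction of 2 annotated ends that are not neighbours, had 37 reads in Alb, 9 in Gc and 7 in Afm. Other junctions outside the annotation had more reads. Those with a single annotated end had 1945 in Alb, 653 in Gc and 63 in Afm. Those with neither end annotated had 5900 in Alb, 383 in Gc and 48 in Afm. In Gc 1 further transcript, Gc-202, is annotated by GENCODE and not in the authors' tables, and its own junction had 60 reads against 19828 for the Gc-201 junction with the same donor, or 0.302% of both.

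Genes around the family did not share its level. The window from 250 kb before Gc to 250 kb after Afm spans 1636 kb and holds 13 other protein-coding genes, of which 5 reached 1 TPM in both libraries and 5 stayed below 0.1 TPM in both. Alb and Afp lie 14.1 kb apart and Afp and Afm 10.02 kb apart, whereas 1003 kb with 5 protein-coding genes separate Gc and Alb. The near-silent Afp thus stands between the most abundant member and Afm.

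The neighbour with the highest level, 5830473C10Rik, lies just beyond Afm and is named Albfm1 in RefSeq. Replicate 1 gave 17.88 TPM (1789 reads) and replicate 2 gave 32.12 TPM (3255 reads) for it, between Afm and Afp, and was called higher in replicate 2 (log2 ratio -0.71, exact test). Its predicted protein of 620 residues held 38 cysteines and was 34.6% identical to that of Alb, 38.0% to that of Afp, 33.9% to that of Afm and 25.2% to that of Gc. Its RefSeq promoter held GTTAAT at -48 and, on the other strand, at -150, and TATAAA at -23.

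Toward Alb from the other side, Cox18, which helps assemble cytochrome c oxidase, had 23.14 and 18.11 TPM in replicates 1 and 2, Ankrd17, an ankyrin repeat protein, 7.45 and 8.26 TPM, and Gm9958 0.73 and 0.83 TPM. The bicarbonate transporter Slc4a4, near Gc, had 13.37 and 10.3 TPM, and the metalloprotease Adamts3 0.04 TPM in both. Rassf6, a Ras association domain protein beyond Albfm1, had 1.67 and 2.10 TPM. The chemokine genes at the far end were low, with Pf4 at 0.93 and 2.50 TPM, Ppbp at 0.05 and 1.26 TPM, Cxcl5 at 0.04 and 0.06 TPM and Cxcl15 at 0.01 and 0 TPM. Npffr2, a neuropeptide receptor, and Cxcl3 had 0 reads in both libraries, which allows up to 3 reads each.

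**Figure D5:**
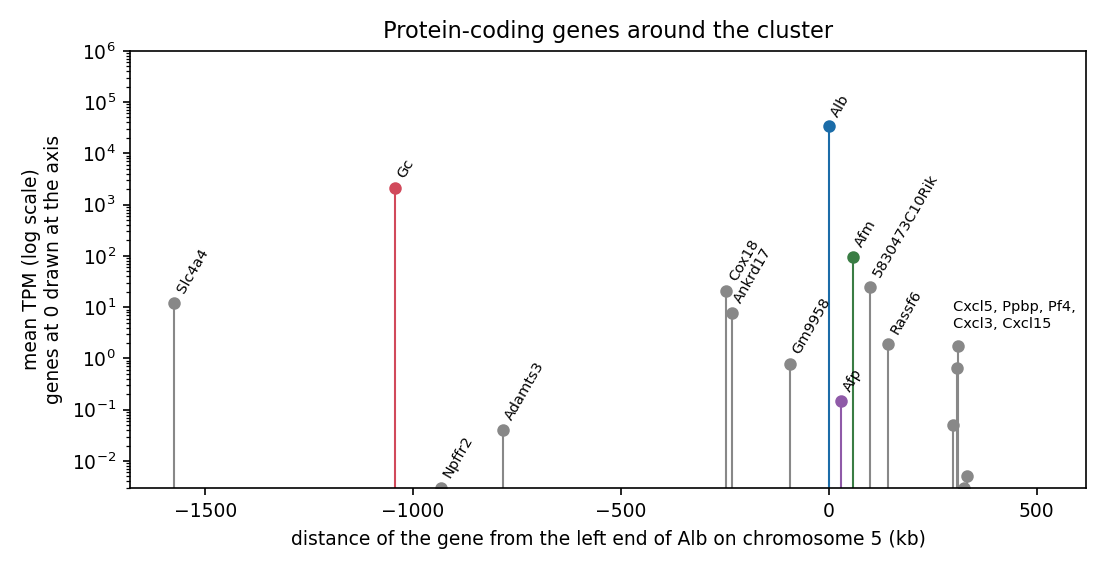
Mean TPM of the 2 libraries (log scale) of the protein-coding genes in the window, against the distance of the gene's left end from that of Alb in kb, with the albumin family in colour and other genes in grey. Afp, at 0.145 TPM, stands between Alb at 33438 and Afm at 95.2 TPM, and no grey point lies above 25.0 TPM.

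The proteins predicted from the GENCODE coding sequences were of like length in Alb (608 residues), Afm (608) and Afp (605), and shorter in Gc (476). Alb, Afm and Afp have 15 exons and Gc has 13. The closest pair was Alb and Afp, with 36.2% identical residues, followed by Afp and Afm with 33.8% and Alb and Afm with 31.1%. Gc was 29.9% identical to Afp, 24.9% to Alb and 22.3% to Afm, over 425, 461 and 453 aligned residues. It shared 20 aligned cysteines with Afp, 25 with Alb and 26 with Afm, so these measures do not agree on its closest relative. Cysteines numbered 36 in Alb, 34 in Afm, 32 in Afp and 28 in Gc, and 8 adjacent pairs occurred in Alb against 7 in each of the others. Closeness in sequence did not follow closeness in level, since Alb and Afp, the most alike pair, were the highest and lowest of the family.

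Of 11 regulators of Afp listed, 10 were matched by symbol and these 10 reached 1 TPM in both libraries, and Nkx2-8 was not analysed here. Zbtb20, a zinc finger repressor of Afp after birth, reached 13.58 and 15.31 TPM in replicates 1 and 2, and Zhx2, a repressor known from mouse strains with persistent Afp, had 5.6 and 4.71 TPM. The most abundant were Nr2f6 (285.9 and 274.36 TPM) and the pioneer factor Foxa2 (56.75 and 90.35 TPM). By the exact test 4 were called higher in replicate 1, 5 higher in replicate 2, and 1 was not called. Over all genes tested 57.0% were called, 29.4% higher in replicate 1 and 27.7% higher in replicate 2. That share depends on level, at 25.6% near Afp, 82.6% near Afm and 96.9% near Gc. The number of calls in this list and in those below therefore does not set a list apart.

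Among 16 genes known from fetal liver, 5 reached 1 TPM in both libraries, 5 stayed below 0.1 TPM in both, and 1 had 0 reads in both. The imprinted RNA Meg3 led with 11.68 and 17.66 TPM, followed by Mest with 7.23 and 5.43 TPM. H19, an imprinted RNA silenced with Afp after birth, had 0.5 and 0.67 TPM. Lin28b, an RNA-binding protein of fetal liver, had 0 reads in both libraries, below Afp, with up to 3 reads allowed each. The list summed to 28.2 and 33.6 TPM. Of 11 tested, 2 were called higher in replicate 1 and 4 higher in replicate 2, against 29.4% and 27.7% of all genes.

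All 20 factors listed for the albumin promoter reached 1 TPM in both libraries. Cebpa, which drives hepatocyte genes, had 324.98 and 298.48 TPM in replicates 1 and 2, and the nuclear receptor Hnf4a 262.54 and 223.89 TPM. Calls were split with TMM, with 9 higher in replicate 1, 7 higher in replicate 2 and 4 not called. Scaling by total reads gave 6 higher in replicate 1 and 10 higher in replicate 2. Among all genes tested, 29.4% and 27.7% were called in these directions with TMM.

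The 16 other plasma carriers listed were all above 1 TPM. Apoe, which carries lipoproteins to their receptors, and Trf (28886 and 22714 TPM) led them, and Alb ranked with these. Of the 16, 10 were called higher in replicate 1, 4 higher in replicate 2 and 2 were not called with TMM, at a median log2 ratio of 0.08, whereas scaling by total reads gave 4 higher in replicate 1 and 10 higher in replicate 2. Secretory processing genes, which fold and export such proteins, were found for 9 of 11 listed, with Hspa5, the chaperone BiP, at 1237 and 1157 TPM and the disulfide isomerase P4hb at 618 and 587 TPM. Of these 9, 7 were called higher in replicate 1, 1 was higher in replicate 2 and 1 was not called with TMM. Scaling by total reads gave 5 and 3. The calls of both lists stand beside 29.4% and 27.7% of all genes tested called in these directions with TMM.

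Partners of each carrier differed in level. Among 12 vitamin D genes, 6 reached 1 TPM in both libraries and 5 stayed below 0.1 TPM. Cyp3a11, a cytochrome P450 that can break down vitamin D, had 492.96 and 752.1 TPM, and the receptor partner Rxra 254.3 and 269.69 TPM. Cyp2r1, the vitamin D 25-hydroxylase whose product Gc carries, had 17.64 and 30.25 TPM, whereas Cyp24a1, which breaks down vitamin D metabolites, had 0 reads in both libraries, with up to 3 reads allowed. Of 8 tested, the exact test called 1 higher in replicate 1 and 5 higher in replicate 2, against 29.4% and 27.7% of all genes.

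For the actin-binding role of Gc, all 3 listed genes were above 1 TPM. Gsn, gelsolin, which severs actin filaments in plasma beside Gc, had 17.3 and 19.08 TPM, and the actin genes Actb 1148 and 1214 TPM and Actg1 148.62 and 136.74 TPM. With TMM Gsn was not called and the other 2 were called higher in replicate 1, as were 29.4% of all genes tested. Scaling by total reads gave 1 call in each direction.

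All 7 vitamin E genes, listed for Afm, were above 1 TPM in both libraries. Cyp4f14 had 474.44 and 433.47 TPM and Sec14l2, which binds tocopherol, 310.84 and 300.47 TPM. Ttpa, the hepatocyte protein that loads vitamin E for export, had 123.18 and 96.41 TPM, close to Afm. Of the 7, 4 were called higher in replicate 1 and 3 higher in replicate 2, against 29.4% and 27.7% of all genes tested. For WNT carriage 5 of 7 reached 1 TPM in both libraries. The WNT deacylase Notum (46.64 and 52.81 TPM) and the acyltransferase Porcn (7.41 and 10.86 TPM) led them. With TMM 3 were called higher in replicate 1, 1 higher in replicate 2 and 3 were not called, beside the same shares of all genes. Scaling by total reads gave 3 calls in each direction.

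Genes of albumin uptake and recycling reached 1 TPM in 7 of 10 cases. Those that did not were Cubn (0 and 1 read), Lrp2 (0.02 and 0.03 TPM) and Amn (0.22 and 0.31 TPM). Fcgrt, the heavy chain of the receptor that rescues albumin from breakdown, had 153.58 and 137.13 TPM in replicates 1 and 2, and its partner B2m 1910 and 2198 TPM. Sparc, an albumin-binding matrix protein, had 149.15 and 134.06 TPM. By the exact test 2 of 9 tested were called higher in replicate 1 and 4 higher in replicate 2, and 3 were not called. Among all genes tested, 29.4% and 27.7% were called in these directions.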

How the data were processed

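Gene and transcript tables of 2 libraries of liver RNA, labelled biological replicates 1 and 2 of 1 group, were analysed. Per the labels the libraries are stranded, read in pairs of 76 nucleotides and made from polyadenylated RNA above 200 nucleotides, depleted of ribosomal RNA, with spike-ins added. Per the file headers and notes, reads were quantified on mm10 with a GENCODE annotation, and the tool is not named in the labels or headers. The authors deposited estimated counts, which need not be whole, with TPM, FPKM and, per transcript, the percent of its gene's TPM. FPKM served only as an alternative for the order of the members. The posterior standard deviation, a score the authors deposited per gene, was read as given. TPM depends on effective length, which was 188 and 178 bases below annotated length for the members in replicates 1 and 2. Junction counts, deposited on mm9 for the whole series, were summed over both libraries. The 2 columns of single libraries in the files of the whole series were not used, since their names are not matched to the replicates.

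Names and coordinates are those of GENCODE M21 on GRCm38, matched by identifier for 42462 of 43346 genes, and promoters those of RefSeq. Protein lengths and identities (global alignment, BLOSUM62, gap opening 10, extension 0.5) come from GENCODE coding sequences in place of RefSeq proteins. Identity is the percent of aligned residues that are identical. Estimated counts were rounded and scaled with the TMM factors of edgeR 4.0.16 under R 4.3.3. Genes with 20 or more reads over the pair of libraries were compared by the exact conditional binomial test, two-sided, with Benjamini-Hochberg adjustment at 0.05. The test covers counting error between 2 libraries and no condition. A prior count of 0.5 reads entered log2 ratios, and a pseudocount of 1 TPM the likeness in level. The exact test alone was tried on simulated counts, scaled by total reads and drawn with counting error only. That simulation could not examine calls that arise from a wider spread between libraries. Intervals cover counting error only, as a read count after PCR is not a count of molecules. Alternatives were DESeq2 1.42.0 size factors, total reads, spike-in totals, other length scaling, and leaving out each replicate.

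The members and the 17 gene lists were chosen with earlier results of these data known. Named are all members, all protein-coding neighbours, direct partners, genes at 0 reads in both libraries, and the 3 genes nearest each member in level. The 2 most abundant genes of each list discussed are also named, except in the lists of cell type markers. Genes at 0 reads in a single library were not all named. H19, Sparc, Cubn, Lrp2 and Amn were named beyond this rule, after their values were seen.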

Additional observations from a re-analysis of the deposited data

How the results depend on the processing

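Of 91 alternatives over 17 results, 73 were counted as unchanged. They moved a level or share by no more than 1 SD of the libraries, or kept a count within 1.5 times. For a ratio, they kept a member's direction and side of the threshold. Among them were 2 members called with spike-in totals in place of 3, and Afp at 0.09 or 0.20 TPM in a single library. With 2 libraries, leaving out 1 of them cannot move a mean level or share by more than 1 SD. Those alternatives, with Afp among them, were therefore bound to be among the 73 and say nothing about stability. Calls of the gene lists under other scalings were added after seeing the data. The log2 ratio of Alb between the libraries turned to -0.11 with total reads, to -0.11 without mitochondrial and small structural RNAs, to -0.14 with spike-in totals and to -0.11 as a ratio of TPM. In edgeR's exact test with a common dispersion Alb (0.019), Afm (0.19) and Gc (0.26) kept their log2 ratios and lost the call (adjusted p = 1.0 each). That dispersion was estimated from the same 2 libraries that were compared, so the lost calls carry little weight. The test called 0 members and 166 genes (0 members and 855 genes at an unadjusted p under 0.05). Spike-in totals left Afm at 0.030, not called. Other scalings kept the other calls of Gc and Afm. Mean TPM was 37543 for Alb, 107 for Afm and 2365 for Gc when rescaled without spike-ins, mitochondrial and small structural RNAs, and 37651 for Alb, 107 for Afm and 2343 for Gc from reads per annotated length, while the order of the members held. By estimated reads the family share was 94.5% for Alb and 5.23% for Gc. Leaving out a replicate gave 32113 to 34763 TPM for Alb, 2014 to 2199 for Gc, 92.87 to 97.49 for Afm and 0.09 to 0.20 for Afp. Afp's 8 and 19 reads limit any statement about it. No paired analysis was possible because the design holds 1 group.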
